A study of Mus musculus with 3 samples.

Results

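The genes described here are BCL2 family regulators of apoptosis, followed in mouse embryonic stem (ES) cells during conditional loss of Pou5f1, the gene of the pluripotency factor Oct3/4. The list held 10 genes: Bcl2, Bcl2l1, Bcl2l11, Mcl1, Bax, Bak1, Bid, Bbc3, Pmaip1 and Bnip3. Their probe sets, which are groups of short array probes for the same transcript, were those that the platform's annotation assigns to 1 of these genes alone. This gave 28 probe sets for 9 of the 10 genes, out of 34945 probe sets for 18193 genes on the array. Bax, a pore-forming member, has no probe set of its own under that rule and is not analysed here. ES cells carrying the conditional Pou5f1 knockout were profiled at day 0, day 1 and day 2, with 1 array of total RNA per day. All 3 groups carry the same conditional allele, and the sources used here do not give the agent that starts the deletion, the strain, or the number of cultures or clones. A culture kept without the knockout for the same time was not analysed here, so loss of Oct3/4 and time in culture cannot be told apart. With 1 array per day there are no replicates and no test, and each value below describes these arrays.

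BCL2 family proteins decide at the outer mitochondrial membrane whether a cell enters apoptosis. The anti-apoptotic members (Bcl2, Bcl2l1 or BCL-XL, and Mcl1) hold the others in check, the pore formers (Bax and Bak1) open the membrane so that cytochrome c escapes, and the BH3-only members (Bcl2l11 or BIM, Bid, Bbc3 or PUMA, and Pmaip1 or NOXA) carry death signals to both. Bnip3 has a BH3-like segment and is best known for the removal of mitochondria by autophagy under low oxygen. Mouse ES cells are regarded as cells poised for apoptosis, in which Mcl1 and Bcl2l1 support survival.

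The day labels were checked on Pou5f1, whose single probe set read 2400 at day 0, then 40.8 at day 1 and 15.5 at day 2. All 14 ES cell markers in a fixed list were measured, and their summed signal was 145271, 84225 and 30487 in the order of the days, while that of 11 measured trophectoderm markers, genes of the lineage that forms the placenta, was 11466, 17597 and 63381. Among 12 fibroblast and feeder cell markers 9 lay below background on average, Col1a1 and Col3a1 included, and the summed signal of the other 3 was 557, 521 and 339. That course is Thy1's, at a log2 difference of −1.65 for day 2 against day 0, while Col1a2 was at 0.26 and Pdgfrb at 0.62. The 8 measured primitive endoderm markers summed to 1842, 2257 and 1674 and went both ways, with Gata6 at 1.46 and Dab2 at 1.33 (0.36 in the lowest of its 3 kept probe sets), and Lama1 at −1.66 and Amn at −1.51 for day 2 against day 0. For the same comparison all 14 ES cell markers were at least 2-fold lower, among them Nr0b1, Tdgf1 and Fgf4 at −5.31, −5.13 and −4.68, and 10 of the 11 trophectoderm markers at least 2-fold higher, among them Plac1 at 4.10, Ascl2 at 3.86, Krt8 at 2.86 and Krt18 at 2.60. Fewer cells of a type and less RNA per cell cannot be told apart in such bulk samples, and the part of these marker shifts in the values below was not tested.

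The 2 members with the largest differences at day 2 were Bcl2l11 and Mcl1, and the 250 bases before the start of each are shown so that the letters there can be set beside the values. The sequences are RefSeq's, in build GRCm38.p6, both on the plus strand and read 5′ to 3′. The Bcl2l11 stretch is chr2:128125788-128126037, before the more upstream of the gene's 2 annotated starts, and the Mcl1 stretch is chr3:95658471-95658720. Capitals mark GTAAACA, the letters recognised by FOXO transcription factors, which are known activators of Bcl2l11 and Bbc3.
Bcl2l11: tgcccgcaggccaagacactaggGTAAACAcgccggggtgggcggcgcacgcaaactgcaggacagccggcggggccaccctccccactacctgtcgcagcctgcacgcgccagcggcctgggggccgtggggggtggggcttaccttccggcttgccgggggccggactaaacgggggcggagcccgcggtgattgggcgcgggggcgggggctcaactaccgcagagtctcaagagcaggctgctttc
Mcl1: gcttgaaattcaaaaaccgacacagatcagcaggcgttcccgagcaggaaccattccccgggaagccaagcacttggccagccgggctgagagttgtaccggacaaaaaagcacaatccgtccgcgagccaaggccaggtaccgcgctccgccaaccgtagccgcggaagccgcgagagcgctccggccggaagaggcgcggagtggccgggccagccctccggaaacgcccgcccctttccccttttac
The Bcl2l11 stretch holds GTAAACA once, 227 bases before the start, and the Mcl1 stretch does not hold it. Searched on both strands, these letters occur in 2 of the 14 windows of the listed genes, Bax included and Pmaip1 not, namely in windows of Bcl2l11 and Bbc3, and in 3.17% of all 32851 windows of the same length. The octamer ATGCAAAT, the best known binding letters of POU factors such as Oct3/4, occurs in 0 of the 14 windows and in 1.60% of all windows. ACGTG, the core that hypoxia-inducible factors bind, occurs in 3 of the 14, in windows of Bax, Bbc3 and Bnip3, and in 16.6% of all windows. In each of these 3 it is read on both strands at overlapping positions. No match of 1 motif overlaps a match of another in these windows. A match is a description of the letters and shows no binding.

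In the comparison of day 2 with day 0, 6 of the 9 measured members had values below 0 and 3 above. Of all 12717 genes 5842 were below 0 and 6875 above. The 6 include Bbc3 at −0.003 and Bak1 at −0.09, and the 3 include Bcl2, whose signals lay at background. Bcl2l11 was lowest at −1.05, followed by Mcl1 at −0.78, Pmaip1 at −0.56 and Bid at −0.49, and Bcl2l1 was highest at 0.53. These differences are in log2 of the signal after a constant of 55.9 was added, which damps dim probe sets, and a gene is represented by its brightest probe set. Of the 28 probe sets, 23 had a mean signal over the arrays of at least this constant and were kept, at least 1 for each of the 9 genes. In this comparison 1 of 9 members, Bcl2l11, was at least 2-fold lower and 0 were higher by as much, where 5.65% of all 12717 genes were lower and 5.25% higher by this rule. The median of the 9 was −0.09, against 0.05 for all genes. The count of members past 2-fold is thus near the share among all genes. The files give 1 kind of error, the disagreement among a gene's own probe sets, whose pooled SD was 0.34 for day 2 against day 0 over 5906 genes with several kept probe sets. It was 0.30 for each of the other comparisons, and it leaves out variation between cultures and hybridisations.

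**Figure D1:**
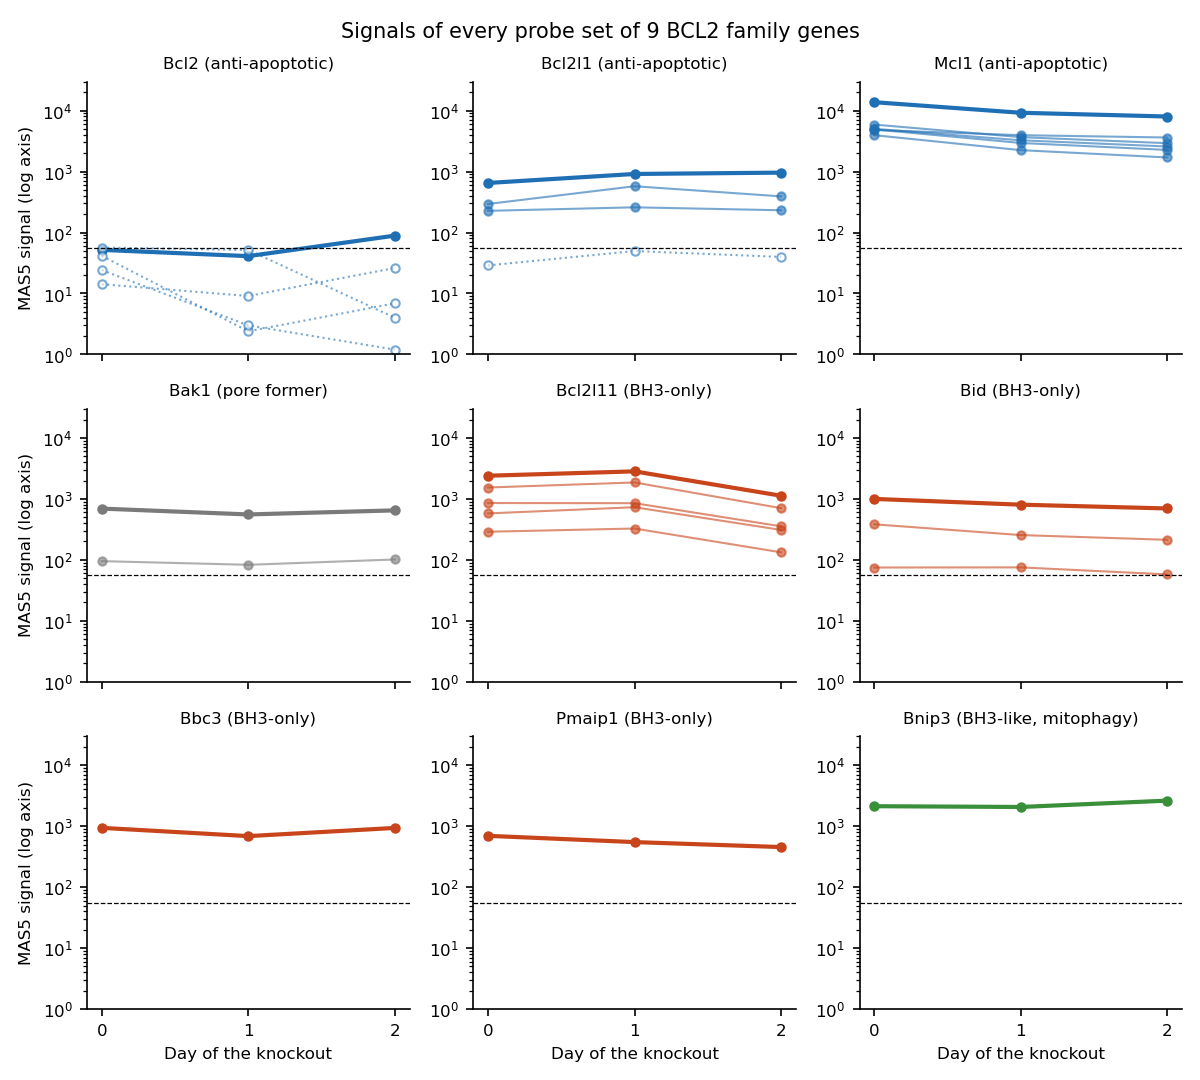
MAS5 signal (log axis) by day of the knockout for every probe set of 9 BCL2 family genes, 1 panel per gene, 1 array per day. Thick lines are the probe set that represents the gene, thin solid lines other kept probe sets, dotted lines with open points those with a mean below the constant, and the dashed line is the constant of 55.9. The 5 Bcl2l11 lines drop after day 1, the 6 Mcl1 lines decline from day 0, and 4 of the 5 Bcl2 lines are dotted.

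Among the anti-apoptotic members Mcl1 was lower at both later days. Mcl1, a short-lived protein that binds BIM, NOXA and BAK, is measured by 6 probe sets, and the brightest gave signals of 13731, 9210 and 7997 in the order of the days. Day 0 was the highest and day 2 the lowest in all 6. For day 2 against day 0 the brightest probe set gave −0.78, or 1.71-fold lower, and the 6 ranged from −1.19 to −0.41 with a mean of −0.90 ± 0.28 (SD over probe sets, n = 6). The 3 at the low end of that range passed 2-fold, so whether Mcl1 reached 2-fold depends on the probe set. The other 5 Mcl1 probe sets had signals between 3952 and 5897 at day 0, between 2244 and 3951 at day 1 and between 1703 and 3617 at day 2, and in each of them the day 2 signal was below that probe set's own day 0 signal. Most of the Mcl1 difference was present at day 1, when the brightest probe set was at −0.57 against day 0. From day 1 to day 2 it was lower by a further −0.20, and all 6 probe sets were below 0 for this step, with a mean of −0.29 ± 0.10 (SD over probe sets, n = 6), which is about the pooled SD over all genes of 0.30.

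Bcl2l1, whose long product BCL-XL blocks apoptosis, went the other way. Its brightest probe set gave 650, 913 and 960 at day 0, day 1 and day 2, the later days being close to each other and both above day 0. Against day 0 this was 0.46 at day 1 and 0.53 at day 2, or 1.37-fold and 1.44-fold higher. The other 2 kept probe sets differed in shape. The first gave 294, 574 and 392, with a peak at day 1, and the second gave 227, 259 and 232, nearly flat. Against day 0 the 3 averaged 0.49 ± 0.35 at day 1 and 0.30 ± 0.25 at day 2 (SD over probe sets, n = 3), all 3 above 0 on both days. Between day 1 and day 2 the direction was unsettled, at 0.07 for the brightest probe set and −0.19 as the mean of the 3. The remaining probe set of Bcl2l1 was below the constant on every array, at 28.9, 49.7 and 39.8. The sources used here do not say which spliced form each probe set reads.

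Bcl2, the founding member of the family, lay at background. Of its 5 probe sets 4 had a mean below the constant. The fifth, with 51.9 at day 0, 41.0 at day 1 and 89.0 at day 2, was above the constant only at day 2. Its difference of 0.43 at day 2 was matched by no common direction in the others, of which 1 was above 0 and 3 were below, from −0.91 to 0.23. No change of Bcl2 was detectable at these signals.

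**Figure D2:**
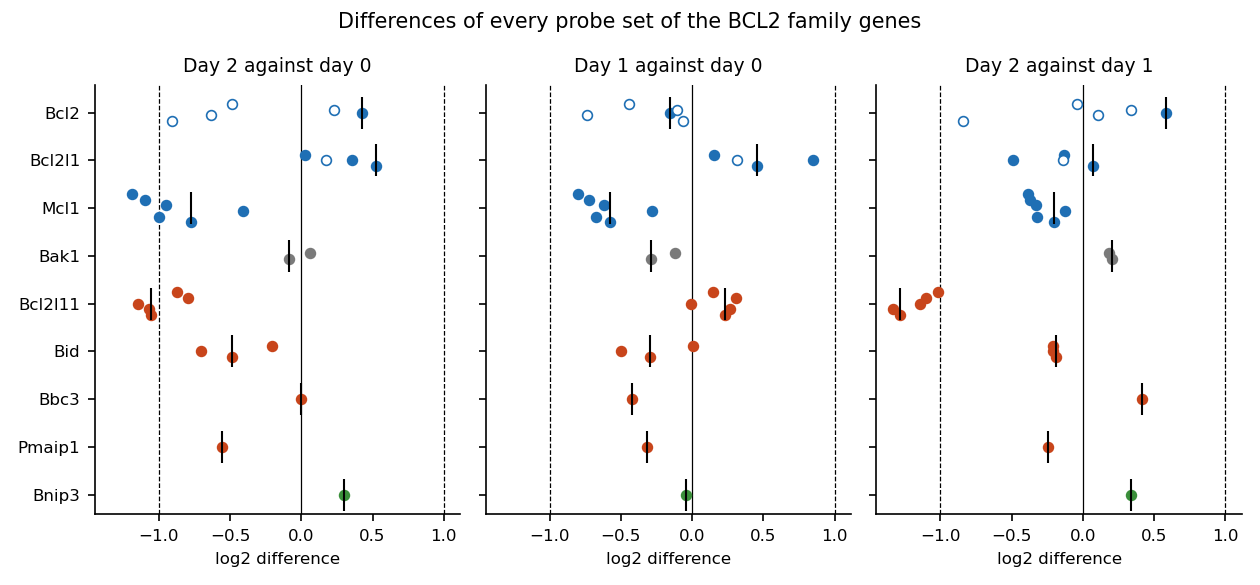
log2 differences of every probe set of the 9 genes for day 2 against day 0 on the left, day 1 against day 0 in the middle and day 2 against day 1 on the right. Filled points are kept probe sets, open points those below the constant, black ticks the probe set that represents the gene, dashed lines 2-fold, and colours the roles (blue anti-apoptotic, grey pore former, red BH3-only, green Bnip3). All 5 Bcl2l11 points lie left of −1 at the right and all 6 Mcl1 points left of 0 in each panel.

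Bak1, the pore former that Mcl1 and BCL-XL restrain, differed little. Its brighter probe set gave 692, 555 and 648 in the order of the days, lowest at day 1, and the dimmer gave 95.2, 82.9 and 101. Both were below day 0 at day 1, by −0.29 and −0.12, and at day 2 the brighter was at −0.09 and the dimmer at 0.06 against day 0. These differences are within the probe set spread.

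The BH3-only member Bcl2l11 gave the clearest pattern of the family. Its product BIM binds all anti-apoptotic members and can activate BAX and BAK directly. The brightest of its 5 probe sets gave signals of 2396, 2826 and 1125 in the order of the days, so that day 1 was the highest and day 2 the lowest. The next brightest gave 1536, 1858 and 704, the third 854, 850 and 355. The 2 dimmer ones gave 577, 730 and 309, and 289, 326 and 133. In every probe set the day 2 signal was the lowest of the 3, and 4 of the 5 were highest at day 1. For day 2 against day 1 the brightest was at −1.29, or 2.44-fold lower, all 5 passed 2-fold, and their mean was −1.18 ± 0.13 (SD over probe sets, n = 5). For that comparison 1.27% of all genes were as low or lower, the most extreme of the members' ranks. The share was 5.28% for day 2 against day 0. Against day 0 the brightest was at 0.23 at day 1 and −1.05 at day 2, and the mean of the 5 was 0.19 ± 0.12 and −0.99 ± 0.15. The day 2 value is therefore just past 2-fold with the brightest probe set and just short of it as a mean over probe sets.

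Bid, which caspase-8 cleaves to link death receptors to mitochondria, was lower at each step by a small amount. The brightest of its 3 probe sets gave 998, 803 and 696, in a steady order. The next gave 383, 255 and 213, and the third, close to the constant, gave 74.8, 75.2 and 57.7. Against day 0 the brightest was at −0.30 at day 1 and −0.49 at day 2, and the 3 ranged from −0.71 to −0.20 at day 2, all below 0.

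Pmaip1, whose product NOXA binds Mcl1 and promotes its degradation, is measured by a single probe set. It gave 695, 548 and 454, again with day 0 highest and day 2 lowest. The differences were −0.31 at day 1 and −0.56 at day 2, or 1.47-fold lower at day 2. There is no further probe set to set beside it.

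Bbc3, whose product PUMA is a main p53-dependent trigger of apoptosis, also has 1 probe set, with signals of 938, 687 and 936. It was lower only at day 1, at −0.42, and day 2 was at 0.998-fold of day 0.

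Bnip3 gave 2126, 2066 and 2625 with its single probe set. Day 0 and day 1 were alike, at −0.04, and day 2 was the highest, at 0.30 against day 0, or 1.23-fold.

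The values were next set by day. For day 1 against day 0, 0 of 9 members passed 2-fold, where 2.59% of all genes were lower and 2.4% higher by that rule. The median of the 9 was −0.29, against 0.04 for all genes, with 7 members below 0 and 2, Bcl2l1 and Bcl2l11, above 0. Of all 12717 genes 5688 were below 0 and 7029 above for this step, and the difference was not tested. For day 2 against day 1, 1 of 9, Bcl2l11, was 2-fold lower and 0 were 2-fold higher, where 2.65% of all genes were lower and 2.09% higher by that rule, and the median was 0.07, against 0.002 for all genes. Bcl2l11 and Bcl2l1 had their lower value in the late step and the other 7 in the early one. Of these 7, Bcl2 lay at background, and Bid and Pmaip1 differed by less than the probe set spread of 1 step. The gap between the steps varies more than either step. Its spread was not computed, and differences in timing between members were not tested. Both steps use the day 1 array, so an error of that array enters them with opposite sign.

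**Figure D3:**
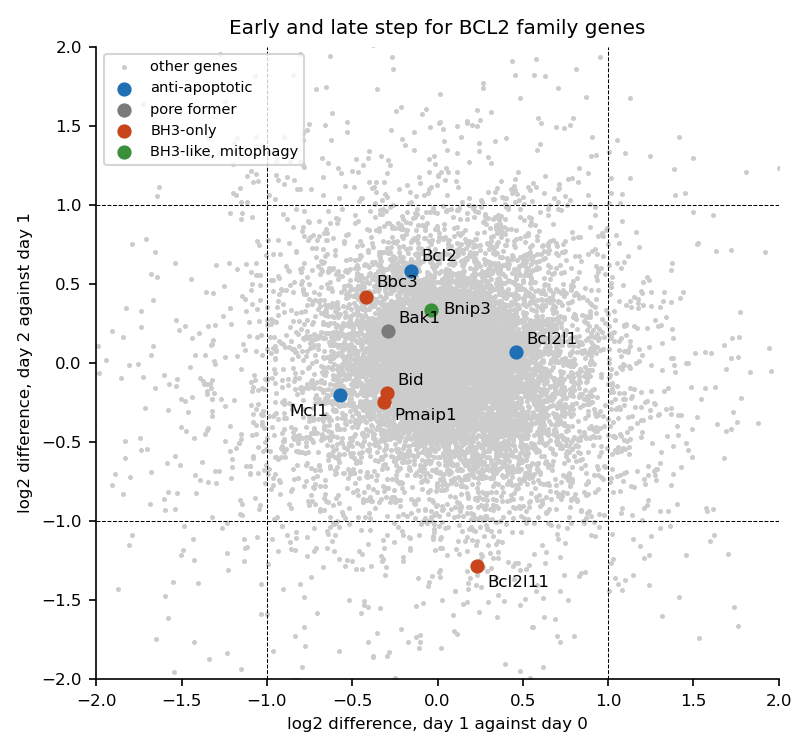
log2 difference for day 2 against day 1 (vertical) by that for day 1 against day 0 (horizontal), the brightest probe set of each gene, with 9 BCL2 family genes coloured by role and other genes in grey. Axes end at 2 log2 units, which leaves out 115 genes, and dashed lines mark 2-fold. Bcl2l11 is the member outside the 2-fold lines, at 0.23 and −1.29, and Mcl1 lies furthest left, at −0.57. The axes share the day 1 array.

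Members were also set against each other within the same arrays. Bcl2l11 was higher than Mcl1 by 0.81 in its log2 difference for day 1 against day 0, that is 0.23 against −0.57, and lower by −1.08 for day 2 against day 1, that is −1.29 against −0.20. Over the whole interval, day 2 against day 0, they were −0.28 apart. The BH3-only gene and its anti-apoptotic partner were thus both lower at day 2, Mcl1 mostly by day 1 and Bcl2l11 after it. Bcl2l1 minus Bcl2l11 was 1.58 for day 2 against day 0, and Bcl2l1 minus Mcl1 was 1.30. These are differences of changes, and no level of 1 gene was set against that of another, since probe sets differ in brightness for the same amount of RNA.

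For Bcl2l11, the member with the largest difference, the genes with the closest course over the 3 arrays were Nanos1, Pdzk1ip1 and Klf3, at distances of 0.01, 0.05 and 0.06 in the plane of the log2 differences of day 1 and of day 2 against day 0. In all 55 of the 12717 genes lay within 0.25 of Bcl2l11. No such count was made for another gene, so how common its course is was not measured.

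Of 10 measured genes outside the list that are BCL2 family or BH3-containing, 1, Bik, passed 2-fold for day 2 against day 0. That share is near the 10.9% among all genes. The 10 include Becn1, which is also counted among the autophagy genes below. Bik, a BH3-only gene of the endoplasmic reticulum, had signals of 163, 417 and 445 in the order of the days, and was higher than at day 0 by 1.11 at day 1 and by 1.20 at day 2. Its 3 kept probe sets ranged from 0.61 to 1.20 at day 2. The median of the 9 measured genes listed as pro-apoptotic or BH3-containing was 0.28 at day 2, against 0.05 for all genes. Of the 9, 6 were above 0 and 3 below. The gene at the median had 3 kept probe sets that ranged from −1.58 to 0.28, so this median rests on the choice of probe set. Bcl2l2, an anti-apoptotic relative of Bcl2l1, gave 382, 443 and 562, or 0.50 at day 2 against day 0.

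Genes that act after the mitochondrial step were within 2-fold in 94.7% of cases for day 2 against day 0, where 89.1% of all genes were. Of 19 measured genes of caspases, their inhibitors and mitochondrial death proteins 0 passed 2-fold upwards and 1 downwards at day 2 against day 0, with a median of 0.11. The lower gene was Endog, a mitochondrial nuclease, with signals of 428, 419 and 165 and a difference of −1.13 at day 2. Its other kept probe set gave −0.50. Like that of Bcl2l11, the brightest Endog probe set was near its starting level at day 1, at −0.03. Of 6 measured death receptor pathway genes, which act ahead of Bid, 0 passed 2-fold in either direction at day 2 against day 0. The median was 0.15, with Casp8 at 0.26 and Tradd at 0.74, the 3 kept probe sets of Tradd ranging from −0.29 to 0.77. Casp8 gave 80.2, 134 and 107 in the order of the days, not far above the constant, which damps such differences. Fas, Fasl and Tnfsf10 lay below the constant on average, and Ripk1 has no probe set of its own.

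For day 2 against day 0, 10.9% of all genes passed 2-fold in either direction. Among 15 measured genes that act on the members 1 did, with a median of 0.16. This was Akt1, a survival kinase that inhibits FOXO factors, with signals of 969, 1478 and 2578 in the order of the days and a difference of 1.36, while its 3 kept probe sets ranged from 0.47 to 1.53. Foxo1 was at −0.26, its 3 kept probe sets ranging from −0.43 to −0.17. Foxo3 had no settled direction, at −0.15 with its brightest probe set and up to 0.43 with another. Both brightest values are smaller than the pooled probe set SD of 0.34, and a link to Bcl2l11 was not tested. Other genes of this list differed more, such as Atf4 at −0.69 and Gsk3b at 0.95, the latter down to −0.42 in another probe set. Of 20 measured p53 targets outside the family 3 passed 2-fold upwards and 1 downwards at day 2 against day 0, with a median of 0.23. Over all genes 5.25% were higher and 5.65% lower by that rule, and no test was made of the difference. The higher ones were the cell cycle inhibitor gene Cdkn1a, at 1.24, the kinase gene Plk2, also at 1.24, and the antiproliferative gene Btg2, at 1.21, and the lower one was Gadd45a, a growth arrest and DNA damage gene, at −1.28. Bbc3 and Pmaip1, which are p53 targets within the family, were at 0.998-fold and at a log2 difference of −0.56 over the same interval.

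**Figure D4:**
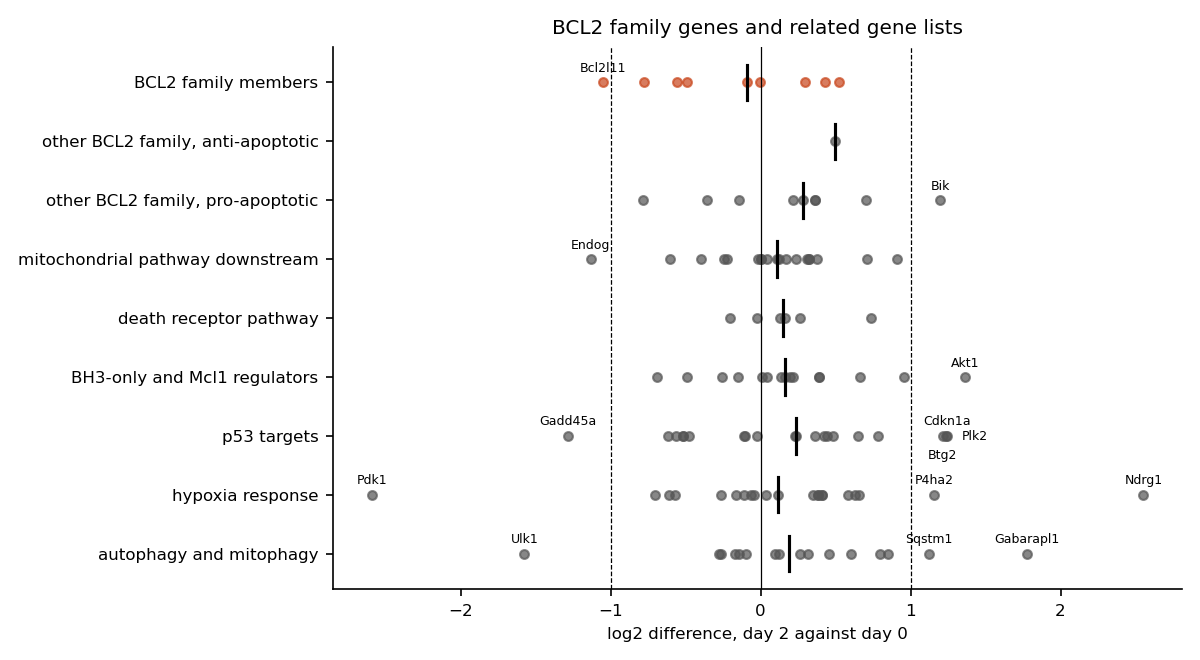
log2 difference for day 2 against day 0 of each measured gene in the family (red) and in 8 related lists (grey), with list medians as black bars and genes past 2-fold (dashed lines) named. List medians lie between −0.09 and 0.50, and 1 family member, Bcl2l11, is past 2-fold.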

How the data were processed

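Biotin-labelled RNA of 3 samples was measured on Affymetrix arrays. The deposited values are linear intensities, 1 per probe set, made with MAS5 (version not stated) per the submitters' processing notes. Scaling by the authors was read from the values: each array has a 2% trimmed mean of 498. The day 2 column holds 64 control probe sets more than the others, left out here, and no source used here says whether that array was processed apart. No detection calls were used, so signal is the guide to background. Arrays were rescaled to a common trimmed mean and 55.9, the 40th percentile of all signals, was added before log2. Probe sets with a mean of at least 55.9 were kept (26925 of 45037), and the brightest kept one represents a gene. Names come from the platform annotation: 34945 probe sets name 1 gene, 932 several and 9160 are not listed, and 34741 of the first matched RefSeq genes by Entrez identifier. The members and lists were chosen with earlier results of these data known. The text names all members, list genes past 2-fold in any comparison (at most 4 a list, those with the largest day 2 difference, or the top 2 where none passed), Pou5f1 and the 3 genes nearest to the most changed member. The ribosomal protein list served scaling alone. Foxo1, Foxo3, Atf4, Gsk3b, Becn1, Col1a2, Pdgfrb, and genes named only as below background or not analysed, were added for context. The steps, run in Python 3.11.15 with numpy 2.4.6, pandas 2.3.3 and scipy 1.17.1, were tested on simulated data. Alternatives were the constant, filter, scaling, choice of probe set and size rule.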

Additional observations from a re-analysis of the deposited data

How the results depend on the processing

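Of 27 differences (9 members in 3 comparisons), 26 kept their sign under every alternative that could be run for them, namely a constant of 27.9 or 112, no filter or one at a mean signal of 151 (the 60th percentile), quantile normalisation, equal ribosomal protein medians, the mean over probe sets, and leaving out probe sets with the suffixes _x, _s or _a. The exception was Bcl2l1 for day 2 against day 1. Part of this agreement in sign was fixed in advance. With the brightest probe set standing for a gene, the filter can drop a gene but cannot alter its value. The mean over probe sets cannot alter Bcl2, Bbc3, Pmaip1 or Bnip3, which have 1 kept probe set each. Leaving out the suffixes could alter Bcl2l11 alone. Bcl2 had no value under the stricter filter. For day 2 against day 0, Bcl2l11 ranged from −1.18 to −0.99 and Mcl1 from −0.90 to −0.77. The number of members past 2-fold was then 0 as the mean over probe sets in place of 1, and 2 (with Mcl1) at 1.5-fold, where 3359 genes or 26.4% passed. The family median for day 2 against day 0 was −0.29 under the stricter filter and −0.21 with equal ribosomal medians, and for day 1 against day 0 −0.43 with the latter scaling. For day 2 against day 1 it turned to −0.062 under the stricter filter, where Bcl2 drops out, and to −0.19 as the mean over probe sets. Equal ribosomal medians moved the median of all genes to −0.07 at day 2 and −0.09 at day 1 relative to day 0, in place of 0.05 and 0.04, and turned the split of all genes past 2-fold for day 1 against day 0 to 193 higher and 449 lower, in place of 305 and 330. With a constant of 112, 373 genes passed in the early step (day 1 against day 0) and 341 in the late step (day 2 against day 1), in place of 635 and 603. At 1.5-fold these were 2150 and 2021. The number of arrays limits the precision, and signals near the constant, those of Bcl2 above all, carry no reliable difference. No paired analysis was possible because each day has 1 array.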

Other observations

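Bnip3 is a target of hypoxia-inducible factors and acts in mitophagy, and both groups of genes were mixed. Of 21 measured hypoxia response genes 2 passed 2-fold upwards and 1 downwards for day 2 against day 0, with a median of 0.12. Over all genes 5.25% were higher and 5.65% lower by that rule, and no test was made of the difference. Ndrg1, a stress-response gene, had signals of 501, 687 and 3213 at day 0, day 1 and day 2, and was higher by 2.55, with its 5 kept probe sets from 2.12 to 3.01. P4ha2, a collagen prolyl hydroxylase gene, was higher by 1.16. The kinase gene Pdk1 gave 6075, 4362 and 960 and was lower by −2.59. Its 3 kept probe sets ranged from −2.59 to −1.74. Bnip3 itself was at 0.30.

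Of 16 measured autophagy and mitophagy genes 2 passed 2-fold upwards and 1 downwards for day 2 against day 0, with a median of 0.19. The shares over all genes were 5.25% upwards and 5.65% downwards, and the difference was not tested. Gabarapl1, an autophagosome membrane gene, gave 533, 1323 and 1958 in the order of the days, and was higher by 1.23 at day 1 and by 1.77 at day 2. Its other kept probe set was higher by 0.71 at day 1 and by 1.33 at day 2. The autophagy receptor gene Sqstm1 was higher by 1.12 at day 2 with its brightest probe set and by 0.18 with the other. Ulk1, the kinase that starts autophagy, gave 3081, 1822 and 997 with differences of −0.74 at day 1 and −1.58 at day 2, and its 2 kept probe sets differed little, at −1.65 and −1.58.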
